A study of Mus musculus with 295 samples.

Results

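The brown and beige fat genes examined here are 10 genes of heat-producing fat: Ucp1, Cidea, Elovl3, Dio2, Otop1, Kcnk3, Prdm16, Zic1, Ppargc1a and Ppara. They were chosen by symbol in the array platform's probe annotation, keeping probes measured on at least 90% of the arrays. All 10 genes passed, with 11 of the 22894 probes kept, since Otop1 has 2 probes. The question was which of the other 9 genes rise and fall with Ucp1 from mouse to mouse and which do not.

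Adipose tissue RNA came from 295 F2 mice, offspring of intercrossed hybrids of the strains C57BL/6J and C3H/HeJ, with both parental strains null for ApoE. Females and males were fed a Western diet high in fat between week 8 and week 24 of life. Each mouse's RNA, labelled with Cy3, was hybridised once against a Cy5-labelled pool that holds an equal share of every mouse's RNA, so that a value is the log2 ratio of a mouse to the average over mice. The labels form 1 group and name no sex, genotype, weight or fat depot for a mouse. Each mouse has a single array, and technical error is part of the spread between mice. Ratios to a pool of the same tissue give no absolute level, so neither adipocyte markers nor these genes can be called present or absent from them.

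Arrays fell into separate clusters, and every relation was therefore computed within 3 sets of mice cut at the widest gap of a marker. Eif2s3y, a Y-linked gene, lay at or below -4.16 in 142 mice, called Eif2s3y-low, and at or above -0.10 in the other 153. Among those 153, 48 mice carried epididymis transcripts: their score over 11 epididymis genes (a mean z-score) was at least 1.71, against at most 0.45 in the other 105. Differences in level between sets are described with no test, because the sets come from the same arrays.

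Brown and beige adipocytes burn fatty acids to make heat. Ucp1, in the inner mitochondrial membrane, lets protons return without making ATP. In classical brown fat the programme is driven by noradrenaline through beta-adrenergic receptors and cyclic AMP, which raise Ppargc1a, a coactivator that works with nuclear receptors such as Ppara, and Dio2, the deiodinase that makes active thyroid hormone inside the cell. Prdm16 is a transcriptional regulator of brown and beige fat identity, and Zic1 is a transcription factor used to mark classical brown rather than beige fat. Cidea is a lipid droplet protein, Elovl3 an elongase of very long chain fatty acids, Otop1 a proton channel and Kcnk3 a background potassium channel, all used as markers of thermogenic fat.

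Promoters of members are shown first, read for the motif TGACG, the core of the cyclic AMP response element. RefSeq promoter sequences (GRCm38.p6) matched 7 of the 10 genes, and the 4 that hold this motif are printed. No promoter is given for Cidea, Elovl3 or Kcnk3. The printed genes were picked by the motif and not by their correlations. Any part of cyclic AMP in those correlations was not tested. Each printed sequence is the 250 bases before the annotated start, 5′ to 3′ on the gene's strand. Capitals mark TGACG on either strand (CGTCA when reversed), AGGTCA, a nuclear receptor motif, and TATAAA, the TATA box, both also searched on either strand (as TGACCT and TTTATA). The regions are chr8:83290098-83290347 on the plus strand for Ucp1, chr12:90739039-90739288 on the minus strand for Dio2, chr5:51567726-51567975 on the minus strand for Ppargc1a and chr15:85735526-85735775 on the plus strand for Ppara.
Ucp1: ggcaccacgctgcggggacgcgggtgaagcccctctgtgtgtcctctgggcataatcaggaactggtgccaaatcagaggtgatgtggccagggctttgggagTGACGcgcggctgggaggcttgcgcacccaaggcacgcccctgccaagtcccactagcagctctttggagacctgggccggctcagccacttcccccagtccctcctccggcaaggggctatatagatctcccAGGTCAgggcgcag
Dio2: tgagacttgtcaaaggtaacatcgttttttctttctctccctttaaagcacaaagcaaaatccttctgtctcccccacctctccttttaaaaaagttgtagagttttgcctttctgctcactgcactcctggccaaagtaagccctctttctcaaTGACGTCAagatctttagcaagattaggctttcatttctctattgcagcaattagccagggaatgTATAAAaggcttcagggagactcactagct
Ppargc1a: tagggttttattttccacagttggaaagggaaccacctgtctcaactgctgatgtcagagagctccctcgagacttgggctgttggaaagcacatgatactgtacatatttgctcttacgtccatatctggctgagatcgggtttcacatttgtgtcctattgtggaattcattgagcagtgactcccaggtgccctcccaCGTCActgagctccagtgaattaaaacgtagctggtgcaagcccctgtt
Ppara: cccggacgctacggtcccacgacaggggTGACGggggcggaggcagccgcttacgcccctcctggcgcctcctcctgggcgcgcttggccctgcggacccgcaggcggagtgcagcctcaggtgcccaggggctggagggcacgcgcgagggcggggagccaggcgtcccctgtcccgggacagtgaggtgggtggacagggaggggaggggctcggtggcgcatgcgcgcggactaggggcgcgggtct
In Ucp1 TGACG lay 147 to 143 bases before the start and in Ppara 222 to 218. Dio2 held overlapping matches on both strands, at 95 to 91 and 92 to 88 bases, written together as TGACGTCA. In Ppargc1a the match was on the reverse strand, 49 to 45 bases before the start. Of 32851 promoters of the same length, 17.8% hold TGACG. The windows of Otop1, Prdm16 and Zic1, which also matched, do not hold those letters. AGGTCA was found in Ucp1 alone of the 7, 14 to 9 bases before the start (14.0% of all promoters), and TATAAA in Dio2 alone, 30 to 25 bases before it (12.4%). These matches describe the letters in the window and not a site in use.

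Ucp1 was among the most variable transcripts of the tissue. Its log2 ratio ran from -5.92 over a median of -1.45 to 2.98, and its SD of 2.14 (n = 295 mice) ranked 58th of 22894 probes, where the median SD was 0.29. In the Eif2s3y-low mice Ucp1 ran from -3.66 to 2.98 with a median of 0.28. In the Eif2s3y-high mice lacking epididymis transcripts it ran from -5.92 to 2.18 with a median of -3.14, and in those with them from -5.78 to 0.45 with a median of -3.53. The levels of the sets overlapped, but the medians of low and high mice lay 11.5-fold apart: 7 of the 153 Eif2s3y-high mice stood above the Eif2s3y-low median, and 50 of them below every Eif2s3y-low mouse. In tissue pieces, fewer cells of a type and less RNA per cell cannot be told apart, here or for any gene below.

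Cidea was the next most variable of the genes that proved to move with Ucp1. It ran from -2.73 to 2.84 (median 0.11) in the Eif2s3y-low mice, from -3.83 to 1.45 (median -1.64) in the Eif2s3y-high mice lacking epididymis transcripts, and from -3.58 to 0.31 (median -2.27) in those with them. The median of the low mice was 3.69 times that of all high mice, a smaller gap than for Ucp1. Ppara, the fatty acid sensing nuclear receptor, had medians of 0.27, -0.49 and -0.53 in the same order and ranged from -1.61 to 2.25 over all mice. Its medians in low and high mice lay 1.70-fold apart, and 20 of the 153 high mice stood above the low median. Kcnk3 had medians of 0.15, -0.21 and -0.57, a 1.37-fold gap between low and high mice, and 48 of the high mice fell below every low mouse.

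The other genes were at similar levels in Eif2s3y-low and Eif2s3y-high mice. The medians of low over high mice were 1.12-fold for Ppargc1a, 1.07-fold for Dio2, 1.04-fold for Elovl3, 1.02-fold for Otop1, 0.94-fold for Zic1 and 0.89-fold for Prdm16. Within the high mice, those carrying epididymis transcripts had lower medians of Dio2 (-1.04 against -0.53) and Otop1 (-0.62 against 0.11). Their epithelial marker score, a mean z-score over 12 genes, ran from 0.89 to 1.99, against -1.18 to 1.71 in the 105 mice without such transcripts and -0.98 to 1.46 in the Eif2s3y-low mice. The part of non-adipose tissue in these level differences was not tested.

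Individual mice stood far out for some genes. Dio2 reached 4.64 in 1 Eif2s3y-low mouse against a highest value of 0.76 among the high mice, and 17 low mice lay above that value. Ppargc1a ran from -1.13 to 1.82 and Elovl3 from -1.64 to 2.84. Zic1 stayed between -0.86 and 0.97 in the Eif2s3y-low mice, while its lowest values in the high sets were -3.17 and -3.44. The SDs over all mice were 1.44 for Prdm16, 1.36 for Cidea, 0.93 for Dio2, 0.68 for Ppara, 0.63 for Otop1 (its first probe), 0.52 for Zic1, 0.50 for Ppargc1a, 0.49 for Elovl3 and 0.46 for Kcnk3, all above the median SD of the array.

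**Figure D1:**
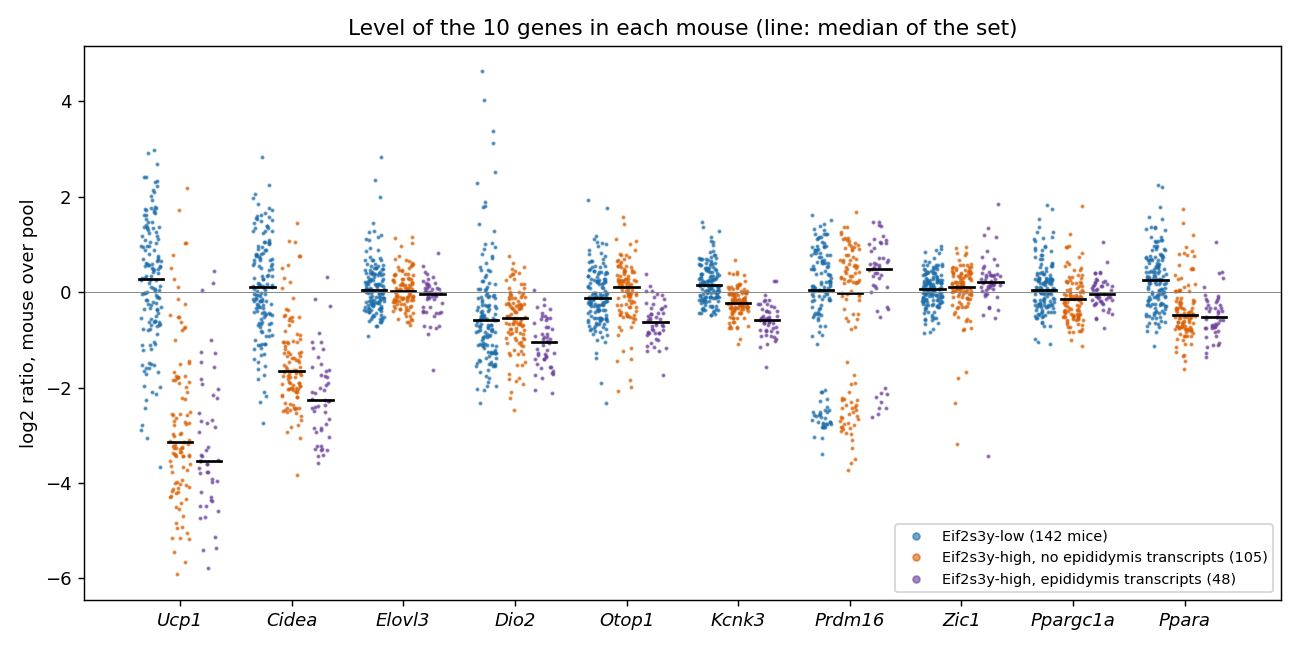
Level of each of the 10 genes in every mouse, as the log2 ratio of the mouse to the pool (vertical axis), with points coloured by set of mice (142, 105 and 48 mice) and a line at each set's median. Ucp1 and Cidea lie higher in the Eif2s3y-low mice, with overlap, while Prdm16 splits into separate clusters in every set.

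Of the 9 genes, 5 followed Ucp1. A gene was said to follow Ucp1 if its slope on Ucp1 was positive at an adjusted p under 0.05 (limma with the set of mice as a term, Benjamini-Hochberg over 22893 probes) and its correlation was at least 0.4 after removal of set means. Over all probes, 0.0917% met both limits and 1.15% were positive past the adjusted p alone. The members were chosen with earlier results of these data known, so their share is a description. Cidea, Otop1, Ppara, Ppargc1a and Dio2 followed, Elovl3 and Kcnk3 passed the adjusted p with smaller correlations, and Prdm16 and Zic1 did not pass. The median r was 0.42 over the 9 genes and -0.01 over all probes.

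Cidea had the highest correlation with Ucp1 of any probe on the array, r = 0.83 (95% interval 0.80 to 0.87, n = 295 mice; Spearman's rho 0.80). Its level rose by 0.56 ± 0.02 (SE) per unit of Ucp1 on the log2 scale (limma adjusted p = 1.54e-73). Otop1 ranked 8th of the 22893 probes with r = 0.52 (interval 0.44 to 0.60) and a slope of 0.21 ± 0.02. Ppara, 10th, had r = 0.51 (0.42 to 0.59) with a slope of 0.21 ± 0.02, and its coactivator Ppargc1a, 13th, had r = 0.49 (0.40 to 0.57) with a slope of 0.16 ± 0.02. Dio2, 19th, had r = 0.42 (0.32 to 0.51), a higher rho of 0.49 and a slope of 0.26 ± 0.03. For these 5 genes the limma adjusted p-values ran from 1.54e-73 to 1.11e-10, and the permutation p within sets was 1e-05, the smallest that 100000 permutations give (two-sided). With the 2 mice of most extreme Ucp1 left out, the 5 correlations were 0.83, 0.52, 0.50, 0.47 and 0.41.

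Elovl3 and Kcnk3 had weaker relations. Elovl3 had r = 0.26 (interval 0.15 to 0.36, n = 295 mice; rho 0.21; permutation p = 1e-05), a slope of 0.09 ± 0.02 and a limma adjusted p of 0.00151, and it ranked 102nd of the probes. Kcnk3 had r = 0.22 (0.11 to 0.32; rho 0.19; permutation p = 7e-05), a slope of 0.05 ± 0.01 and a limma adjusted p of 0.0157. With ranks in place of values the adjusted p of Kcnk3 was 0.0643. With Ucp1, Kcnk3 correlated at 0.31 within the Eif2s3y-low mice and at 0.12 and 0.19 within the high sets.

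Prdm16 and Zic1, the identity regulators of the list, showed no detectable relation. Prdm16 had r = 0.03 (interval -0.08 to 0.15; permutation p = 0.600; limma adjusted p = 0.903). Zic1 had r = 0.02 (-0.09 to 0.13; permutation p = 0.745; limma adjusted p = 0.940). These intervals leave out an r of 0.4, the size used here, but allow small relations of either sign. The probes of Otop1 disagreed. The second, less variable probe (SD 0.28 against 0.63, measured on 98.3% of arrays) had r = 0.04 with Ucp1 (limma adjusted p = 0.883) and r = -0.23 with the first Otop1 probe, so the result for Otop1 rests on the first probe.

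**Figure D2:**
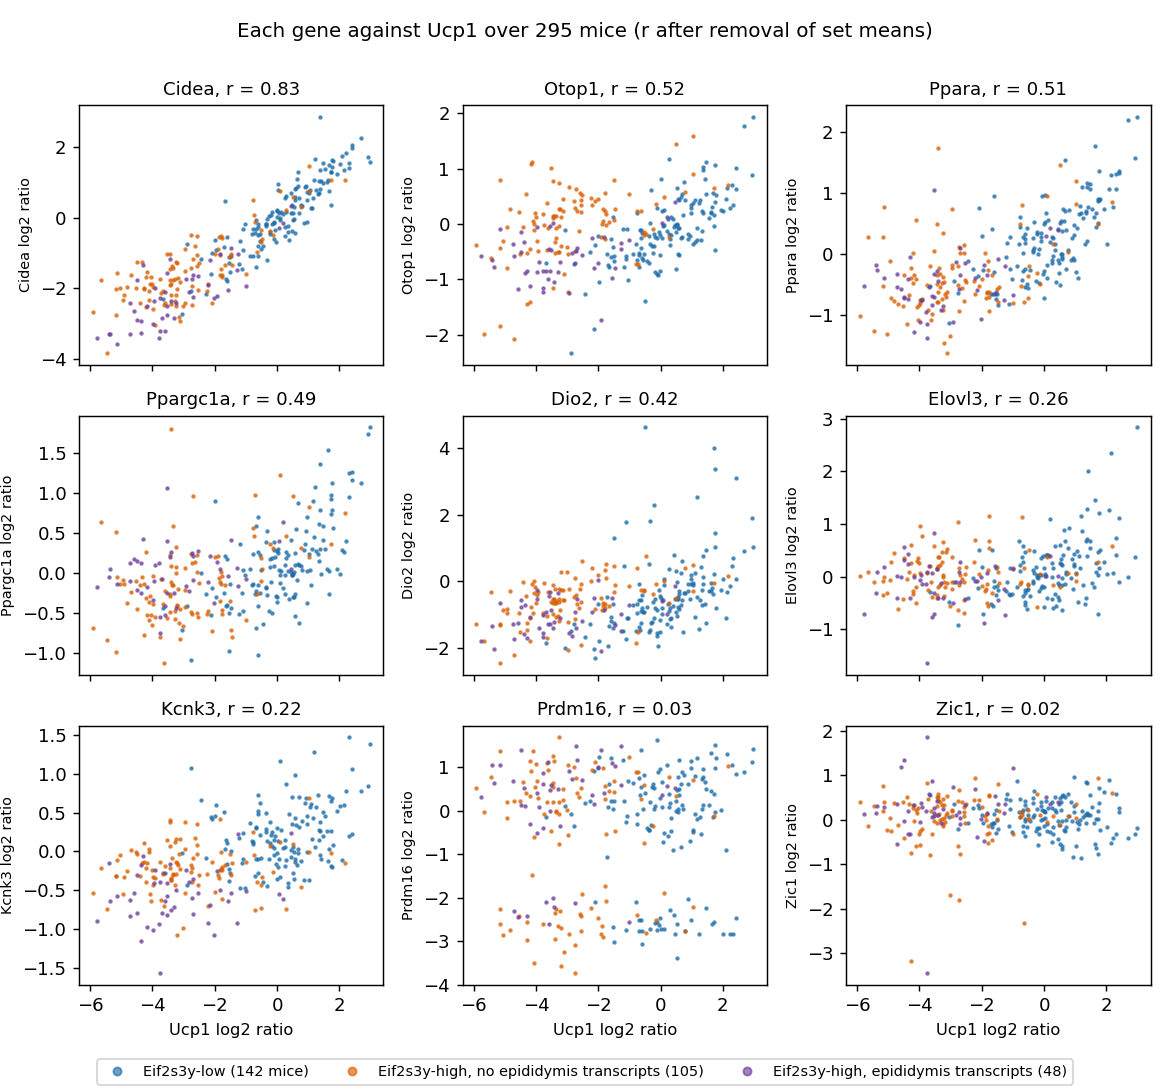
Each of the 9 genes (vertical axis, log2 ratio to the pool) against Ucp1 (horizontal axis, log2 ratio) in 295 mice coloured by set, with r after removal of set means above each panel. The relation narrows from Cidea (0.83) to Kcnk3 (0.22) and is flat for Prdm16 (0.03) and Zic1 (0.02), where Prdm16 forms separate bands across the whole range of Ucp1.

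Within the sets, the number of genes following Ucp1 was 6, 4 and 1. In the 142 Eif2s3y-low mice (0.371% of probes met both limits) the correlations were 0.89 for Cidea, 0.70 for Otop1, 0.68 for Ppara, 0.63 for Ppargc1a, 0.48 for Dio2 and 0.47 for Elovl3. In the 105 Eif2s3y-high mice lacking epididymis transcripts (0.135% of probes) they were 0.80 for Cidea, 0.45 for Dio2, 0.42 for Otop1 and 0.41 for Ppargc1a, while Ppara passed the limma adjusted p (0.00986) with r = 0.39. In the 48 mice with epididymis transcripts (0.0131% of probes) Cidea followed alone, with r = 0.81. Ppara at 0.34, Dio2 at 0.32, Otop1 at 0.29 and Ppargc1a at 0.24 did not pass the limma adjusted p there, where few mice limit the precision.

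The slopes on Ucp1 differed between sets for 6 of the 9 genes (limma interaction test, Benjamini-Hochberg over all probes; 4.81% of probes passed). All 6 were steepest in the Eif2s3y-low mice. Elovl3 rose by 0.20 ± 0.03 (SE) per unit of Ucp1 in the low mice and by 0.02 ± 0.03 and 0.006 ± 0.05 in the high sets (adjusted p = 0.00211). Cidea rose by 0.69 ± 0.03, 0.47 ± 0.03 and 0.51 ± 0.05 (adjusted p = 0.00247). The test did not call Kcnk3 (adjusted p = 0.306), Zic1 (0.893) or Prdm16 (0.969).

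**Figure D3:**
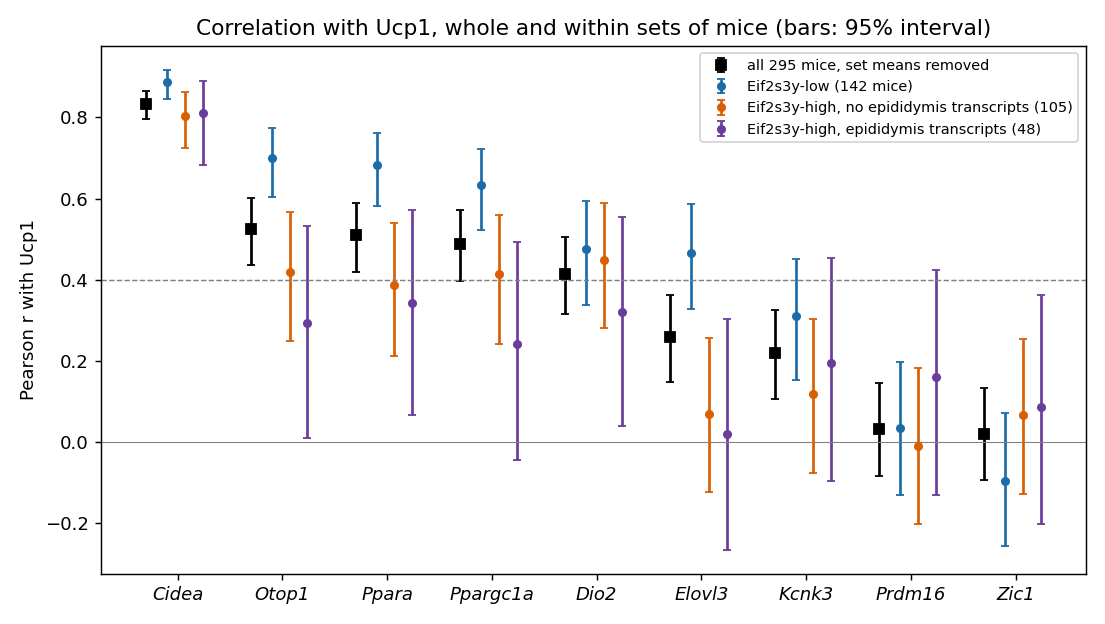
Pearson correlation with Ucp1 (vertical axis) for each gene, over all 295 mice after removal of set means (black squares) and within each set (coloured points); bars are 95% intervals and the dashed line marks 0.4. Cidea lies between 0.80 and 0.89 throughout, and Elovl3 lies at 0.47 in the Eif2s3y-low mice but at 0.07 and 0.02 in the high sets.

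Among themselves the 10 genes formed 45 pairs, with a median r of 0.22. The correlation reached 0.4 in 10 pairs and lay within 0.1 of 0 in 16. Besides Ucp1 with Cidea, the tightest pair was Ppargc1a with Ppara at 0.73, above the r of either gene with Ucp1. Cidea correlated with Ppara at 0.64, with Ppargc1a at 0.61 and with Otop1 at 0.49. Its values for Ppara and Ppargc1a were above those of Ucp1 (0.51 and 0.49); the differences were not tested. Dio2 had r = 0.10 with Ppara, 0.32 with Ppargc1a, 0.33 with Cidea and 0.35 with Otop1. Otop1 had 0.28 with Ppargc1a and 0.42 with Ppara. Some of these values join sets that differ. In the Eif2s3y-low mice, the high mice without epididymis transcripts and those with them, Dio2 with Ppara had 0.27, -0.24 and -0.19. In the same order Dio2 with Ppargc1a had 0.48, 0.05 and -0.14, and Otop1 with Ppargc1a 0.50, -0.005 and 0.10. Ppargc1a with Ppara had 0.78, 0.65 and 0.74. These differences between sets were not tested. Prdm16 reached 0.16 with Ppara as its highest r with a member, and Zic1 0.14 with Elovl3. These pair values are descriptions over the same 295 arrays.

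**Figure D4:**
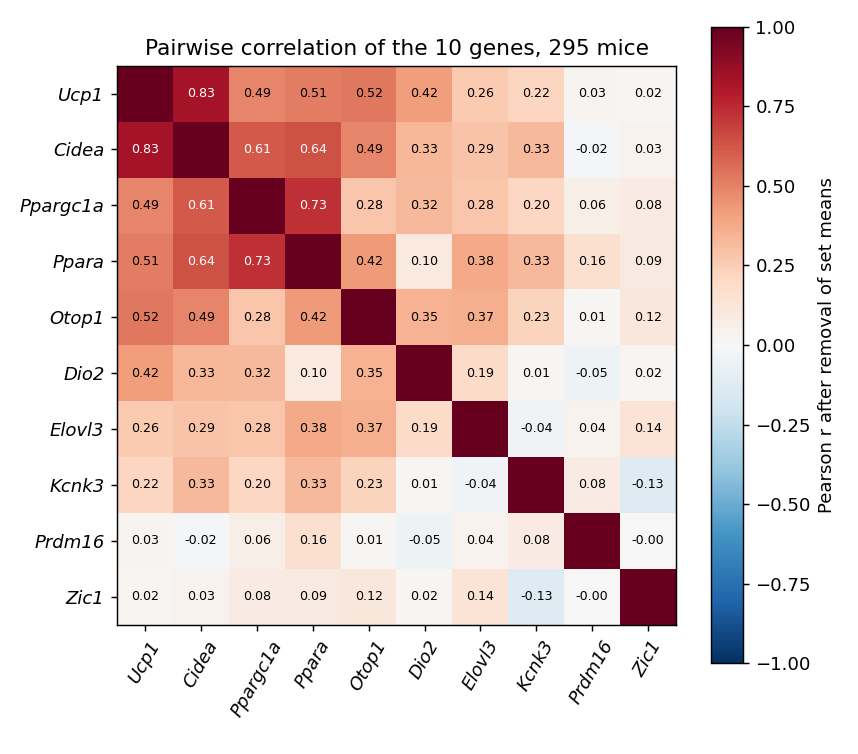
Pairwise Pearson correlation of the 10 genes over 295 mice after removal of set means, each cell holding its r and coloured from -1 (blue) to 1 (red). Off the diagonal the darkest cells are 0.83 for Ucp1 and Cidea and 0.73 for Ppargc1a and Ppara, while the rows of Prdm16 and Zic1 are near 0.

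Outside the members, the 15 named genes of highest r with Ucp1 were taken by rule. They were led by Fabp3, a fatty acid binding protein of oxidative tissues, at 0.71, Cpt1b, the muscle-type carnitine palmitoyltransferase that admits fatty acids to mitochondria, at 0.67, and Cox7a1, a cytochrome oxidase subunit, at 0.65. Acot11, an acyl-CoA thioesterase, followed at 0.53, Cox8b, another oxidase subunit, at 0.52, S100b, a calcium binding protein, at 0.50 and Gpd2, the mitochondrial glycerol phosphate dehydrogenase, at 0.50. Acadvl had 0.48, Afg1l 0.45, Smr3a 0.44, Pank1 0.44, Idh3b 0.41, Letmd1 0.41, Pitx1 0.40 and Phospho1 0.40. Their limma adjusted p-values ran from 1.87e-42 to 1.37e-09. The r was highest in the Eif2s3y-low mice for all but S100b and Pitx1. Gpd2 had 0.72 there, 0.50 in high mice without epididymis transcripts and 0.08 in those with them. In the same order Acot11 had 0.69, 0.48 and 0.15 and Letmd1 0.61, 0.28 and 0.07. S100b had 0.54, 0.45 and 0.58, and Pitx1 0.29, 0.48 and 0.42.

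In the other direction no probe reached an r of -0.4, and 0.454% of probes were lower with rising Ucp1 past the adjusted p. Mstn, the muscle growth inhibitor myostatin, had the lowest r of the named genes, -0.27 (limma adjusted p = 0.000824). Jpt2, Pkd1l2, Scoc and Cyp2c23 lay at -0.25, and Cul4a, Cyp4f18, Ccnd2, Daxx and Rap1gap2 at -0.24. For Mstn and each of these genes r was weaker in the Eif2s3y-low mice than in either high set. Cul4a had -0.02 in the low mice against -0.36 and -0.45, and Jpt2 -0.21 against -0.31 and -0.25. The limma interaction test called none of them (lowest adjusted p 0.0710, for Rap1gap2). The direction of Ccnd2 and Rap1gap2 turned without the set term (r of 0.20 and 0.25), and Rap1gap2 had an r of 0.0014 within the Eif2s3y-low mice.

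Lists of related genes were read against Ucp1 in the same fit, where 1.15% of all probes rose and 0.454% fell. Of 29 other brown fat genes measured, 14 rose with Ucp1 and none fell, with a median r of 0.19 against -0.01 over all probes, and 9 reached 0.4. The lists were chosen with earlier results of these data known, so their shares are descriptions. Besides those named above, Ppargc1b, a relative of Ppargc1a, had r = 0.34, and Pdk4, a kinase that restrains glucose oxidation, 0.29. Ebf2 (0.05), a brown fat transcription factor, and Ucp3 (0.11) did not pass. The lowest of the list, Cited1 (-0.14), Zic2 (-0.13) and Lhx8 (-0.10), did not pass either. Of 11 fatty acid oxidation genes 6 rose, among them Acadvl (0.48), Hadhb (0.30) and Acadl (0.23), enzymes of the oxidation cycle, with a list median of 0.20. Of 7 oxidative phosphorylation genes 5 rose, led by the complex I subunits Ndufs1 (0.28), Ndufv1 (0.26) and Ndufa10 (0.26), with a median of 0.23. List scores (mean z-scores) related to Ucp1 mainly in the Eif2s3y-low mice. For fatty acid oxidation r was 0.51 there, 0.11 in high mice without epididymis transcripts and 0.09 in those with them. In the same order it was 0.46, 0.12 and 0.11 for oxidative phosphorylation and 0.72, 0.39 and 0.34 for other brown fat genes. The differences between sets were not tested.

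Of 10 beige fat markers 0 passed the limma adjusted p, which is near the share of all probes called (1.15% rose and 0.454% fell) and no result about the list, with r from -0.15 for Slc27a1, a fatty acid transporter, to 0.11 for Tbx1, a transcription factor used as a beige marker, and a median of -0.01. Whether brown and beige lists differ from each other was not tested. None of 9 beta-adrenergic and lipolysis genes passed (r from -0.14 for Npr3 to 0.05 for Adcy3), nor any of 7 thyroid hormone genes (-0.09 for Rxra to 0.05 for Dio1) or of 9 genes of the creatine and calcium cycles (-0.10 for Gamt to 0.12 for Ckb). These counts are also near those shares and are no result about the lists. Of 12 lipogenic genes, Elovl6, a fatty acid elongase, rose alone, with r = 0.21 over all mice, and with 0.44 in the Eif2s3y-low mice against -0.044 and 0.11 in the high sets. The lipogenic list score (a mean z-score) had an r of 0.37 with Ucp1 in the low mice and of -0.21 and -0.25 in the high sets. The adipocyte score also differed in sign, with 0.27 in the low mice and -0.29 and -0.19 in the high sets. Lep fell with Ucp1 (r = -0.20, limma adjusted p = 0.0378) and was the single gene called in the adipocyte list of 9 and the white fat list of 10. Its r with Ucp1 was -0.07 in the low mice and -0.33 and -0.24 in the high sets.

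Of the markers of other cell types few passed. No gene passed of 14 macrophage, 7 T cell, 7 B cell, 9 endothelial, 11 epididymis, 4 mesothelial, 2 exocrine pancreas, 7 steroidogenic or 5 erythrocyte genes. These counts are near the shares of all probes called (1.15% rose and 0.454% fell) and are no result about the lists. The values over all mice join sets of opposite sign for several of these lists. In the Eif2s3y-low mice, the high mice without epididymis transcripts and those with them, the r of the macrophage score with Ucp1 was -0.28, 0.19 and 0.16. That of the T cell score was -0.25, 0.22 and 0.24, of the B cell score -0.21, 0.26 and 0.29, and of the endothelial score 0.06, -0.26 and -0.22. These score values are descriptions, and their difference between sets was not tested. Muscle uses several of the same oxidative genes. Of 11 skeletal muscle genes 0 passed, again near those shares, the highest being myoglobin, Mb, at 0.19. The muscle score correlated with Ucp1 at 0.06, and at 0.44 without the set term. That score, a mean z-score, ran from -0.66 to 4.74 in the Eif2s3y-low mice, from -1.01 to 2.82 in the high mice without epididymis transcripts and from -0.84 to 0.01 in those with them. With the muscle score as a covariate the 5 genes that followed Ucp1 were called again, with r between 0.42 and 0.83. The part of muscle tissue in these relations was not tested. Of 6 heart genes Tnnt2, a troponin, rose (0.27), and of 9 nerve and Schwann cell genes S100b, which is also in the brown fat list. Of 12 epithelial genes, Mal (0.25; -0.10 without the set term) and Krt5 (0.21) rose, and the epithelial score correlated with Ucp1 at 0.14. With that score as a covariate, 4 genes followed Ucp1, since the r of Dio2 was 0.39 (limma adjusted p still under 0.05).

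**Figure D5:**
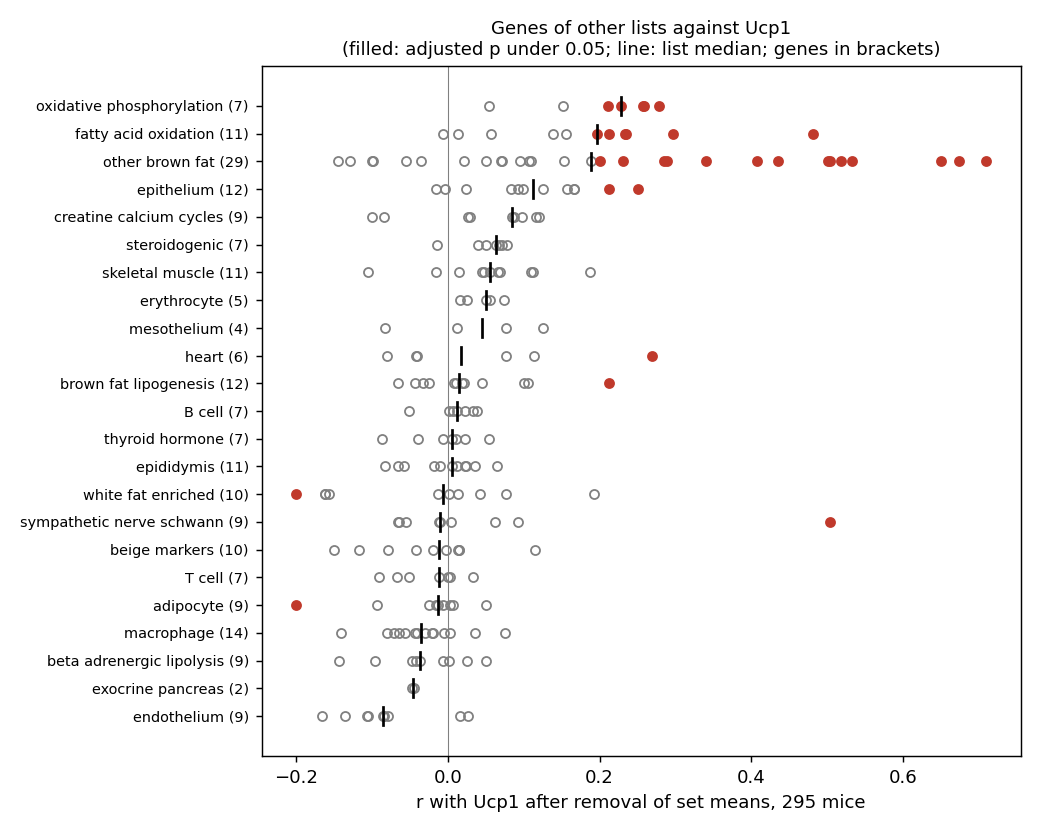
Correlation with Ucp1 after removal of set means (horizontal axis, 295 mice) for each measured gene of 23 lists, with the number of genes in brackets; filled points passed the adjusted p of 0.05 and lines mark list medians. Oxidative phosphorylation, fatty acid oxidation and other brown fat genes lie to the right with medians of 0.23, 0.20 and 0.19, while beige markers centre on -0.01.

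Measured against leptin, the fat hormone gene Lep, the members leaned down. Of the 9 genes, each read by its first probe, 6 fell with rising Lep and none rose past the limma adjusted p. Over all probes 30.1% fell and 33.6% rose, so the share is above a large background. The first Otop1 probe did not pass (r = -0.05, limma adjusted p = 0.489). Its second probe rose with Lep (r = 0.36, limma adjusted p = 1.38e-09). Ppargc1a had r = -0.28, Ppara -0.23, Cidea -0.20, Dio2 -0.20, Elovl3 -0.19 and Zic1 -0.16. Ucp1 itself fell with Lep at r = -0.20 and a slope of -0.68 ± 0.19 (SE, limma adjusted p = 0.00122). Within the sets the r of Ucp1 with Lep was -0.07 in the Eif2s3y-low mice. It was -0.33 in the high mice without epididymis transcripts and -0.24 in those with them. Kcnk3, at 0.0006, showed no relation. With no set term, Ucp1, Cidea, Dio2 and Ppara did not pass against Lep, while Kcnk3 rose.

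Against the macrophage score the 2 metabolic regulators stood lowest. Ppara had r = -0.49 and Ppargc1a -0.43, followed by Cidea at -0.28 and Kcnk3 at -0.22, so that 4 of 9 genes fell where 27.9% of all probes did. Otop1 rose by its first probe, with r = 0.15 (limma adjusted p = 0.0196), where 23.1% of probes rose. Its second probe did not pass (r = -0.09, limma adjusted p = 0.177). Ucp1 did not pass over all mice (r = -0.04, limma adjusted p = 0.583), where its r was negative in the Eif2s3y-low mice (-0.28) and positive in the high sets (0.19 and 0.16). With the macrophage score as a covariate, the r of Ppara with Ucp1 was 0.56 and that of Ppargc1a 0.52. Against the skeletal muscle score, where 0.769% of probes rose and 0.17% fell, no member passed. Those statements on Ucp1 and on muscle hold with the set of mice as a term: without it Ucp1 fell with the macrophage score, and Ucp1, Cidea, Kcnk3, Ppargc1a and Ppara rose with the muscle score, whose levels also differ between sets.

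Genes most like the members that did not follow Ucp1 were taken by rule as the 3 with the highest r over the 295 mice. For Elovl3 they were Csnk2a1 (0.51), Dach1 (0.51) and Pcdh9 (0.49). For Kcnk3 they were Pitpnm2 (0.72), Coro1c (0.65) and Psme3 (0.63), of which the first and second lie on chromosome 5 as Kcnk3 does. For Zic1 they were Olfr1093 (0.59), Pdcl3 (0.53) and Olfr508 (0.48). For Prdm16 they were Akr1e1 on chromosome 13 (0.63) and Pla2g2e (0.57) and B3galt6 (0.55), both on its own chromosome 4.

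Prdm16 varied in another way than the rest. Its levels fell into separate clusters, seen after the values were known: 81 mice (27.5%) lay between -3.73 and -1.47, and 214 mice between -1.08 and 1.68. The cluster medians were -2.59 and 0.45, 8.25-fold apart. Each set held both clusters, with 34 of 142 Eif2s3y-low mice (23.9%), 38 of 105 high mice without epididymis transcripts (36.2%) and 9 of 48 with them (18.8%) in the lower cluster. Each range of mouse numbers held both as well, with 24, 23 and 34 lower mice. Ucp1 spanned nearly its whole range in both clusters, from -5.17 to 2.43 (median -1.76) in the lower and from -5.92 to 2.98 (median -1.23) in the upper. Within the clusters, the r of Prdm16 with Ucp1 was 0.10 and 0.09.

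Many of the genes that varied most with Prdm16 lay on its chromosome, though the first, Akr1e1, did not. Of the 50 genes with the largest absolute r to Prdm16, 40 (80.0%) lie on chromosome 4, which holds 5.75% of all named genes. They lie between 3 and 729 protein-coding genes away, with a median of 175.5. For the other members the count was at most 6 of 50, that of Kcnk3 (12.0%, where 6.08% of genes are on chromosome 5). This count was chosen after the values were seen and is a description of the 295 arrays.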

How the data were processed

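RNA of 295 mice was measured on 2-colour arrays. The deposited values of 23387 probes were read as log10 ratios, and the authors' background correction and normalization are not stated in the labels. Scale, centring and direction are unstated and were read from the values. Array means ran from -0.00991 to 0.0250 and array medians from -0.0521 to 0.0387 in the deposited unit. Because the pool averages all mice, a probe's mean log ratio falls with its variance for mouse over pool. Over probes that slope was -1.63, where log10 predicts -1.15, natural log -0.50 and log2 -0.35, so the direction follows from its sign and the base is less certain. Fold sizes rest on the log10 reading; correlations and calls do not. The labels state the dyes, and 944 of 43365 array pairs had an r under -0.3 (lowest -0.52), each across the epididymis split; the direction was kept.

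Log2 ratios are the deposited values times 3.32. Of the table, 1.02% was empty. The 493 probes with values in under 90% of mice were left out, and 7762 gaps were filled with the probe's mean. Of 527 values at the deposited limits of -2 and 2, 0 belonged to members. Probes were named from the platform annotation, updated through Entrez identifiers for 12652 probes; 13644 probes had 1 symbol, 48 several and 9695 none. For members, lists, Lep and Eif2s3y, a gene's probe is the most variable of those kept. Genes of highest and lowest r with Ucp1 take the probe of largest absolute r. Genes most like a member take the probe of highest r, or of largest absolute r in the chromosome count. The series text gives 295 mice and the sample text 330; 1 sample's number differs between its labels and its title was used. Arrays give no read depth, and their number limits precision.

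Each probe was fitted on Ucp1, Lep or a list score (mean z-score) with the set of mice as a term in limma 3.58.1 (R 4.3.3), with Benjamini-Hochberg adjustment; the code was tested on simulated data. Correlations are of residuals after set means, with Fisher intervals. The rest used SciPy 1.17.1, pandas 2.3.3, NumPy 2.4.6 and, for plots, matplotlib 3.10.9, in Python 3.11.15. Of 23 lists, 8 genes stand in several. Genes named are the members, the 15 highest and 10 lowest in r with Ucp1 among called genes with 1 symbol, the 3 most like each member that does not follow, the 3 of each list with the largest absolute r, Lep and Eif2s3y; others of the brown fat list and the chromosome 4 count were chosen after values were seen. The members and lists were chosen with earlier results of these data known. Labels do not say which samples came from separate litters or cages, so p-values measure the spread between these mice. Alternatives tried are in the closing section.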

Additional observations from a re-analysis of the deposited data

Results flagged for a closer look

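The slope on Ucp1 differed between the 3 sets of mice for 6 of the 9 genes by a limma test of the interaction, adjusted over all probes, of which 4.81% passed. The adjusted p-values were 0.00211 for Elovl3, 0.00247 for Cidea, 0.00357 for Otop1, 0.00424 for Ppara, 0.00509 for Ppargc1a and 0.0191 for Dio2. In the Eif2s3y-low mice, the high mice without epididymis transcripts and those with them, Otop1 rose by 0.33 ± 0.03, 0.16 ± 0.03 and 0.08 ± 0.05 (SE) per unit of Ucp1. Ppara rose by 0.33 ± 0.03, 0.14 ± 0.03 and 0.11 ± 0.05, Ppargc1a by 0.25 ± 0.03, 0.12 ± 0.02 and 0.05 ± 0.04, and Dio2 by 0.42 ± 0.05, 0.17 ± 0.05 and 0.11 ± 0.08. Ucp1 levels were higher in the low mice (median 0.28 against -3.14 and -3.53), so the slopes were measured over different ranges of Ucp1, and the part of that range in the difference was not tested.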

How the results depend on the processing

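Under 20 alternatives each, Cidea kept its direction and its call in all 20 (r from 0.80 to 0.91). Dio2, Ppargc1a and Ppara did in 18 each, Otop1 in 19 of 21, Elovl3 in 15 and Kcnk3 in 14. In the other alternatives the call was lost with the direction kept. The call here is the limma adjusted p alone, without the r of 0.4. Alternatives on gaps, the probe filter and values at the limits could not change these r. The genes' first probes had no gaps and no values at the limits. Probes associated with Ucp1 numbered 368, against 13107 with no set term, 865 in Eif2s3y-low mice alone, 3 in mice with epididymis transcripts alone, and 31, 27 and 144 in mice of low, middle and high number. Probes with r of at least 0.4 numbered 21, against 558, 85 and 3 in the first 3 of these and 71 in mice of high number. Fewer mice enter each subset. Genes following Ucp1 numbered 5, against 1 in mice with epididymis transcripts alone, 2 in mice of low number and 3 at an r of at least 0.5. Cidea and Otop1 were the 2 in mice of low number. Without a set term 12493 probes, against 215, were associated with the muscle score, and the cause was not tested. Also without it, r with Lep was -0.03 for Ucp1, -0.01 for Cidea, -0.11 for Dio2, -0.12 for Ppara and 0.15 for Kcnk3; r with the macrophage score was -0.36 for Ucp1; and r with the muscle score was 0.44 for Ucp1, 0.45 for Cidea, 0.33 for Kcnk3, 0.31 for Ppara and 0.18 for Ppargc1a. The central 90% of mice spanned 89.5-fold for Ucp1, or 3.87-fold if the deposited ratios are read as log2 and 7.04-fold as natural log.

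The r of the 9 genes with Ucp1 turned sign for Prdm16 and Zic1 alone. The r of Prdm16 with Ucp1 was -0.011 in Eif2s3y-high mice without epididymis transcripts and -0.027 in mice of middle number. That of Zic1 was -0.013 with no set term, -0.095 in Eif2s3y-low mice, -0.0068 with ranks and -0.113 in mice of high number. With no set term, Otop1 had r = 0.072 with Lep. Dio2 had -0.036 and Zic1 -0.0084 with the macrophage score. Elovl3 had 0.065, Dio2 0.069 and Otop1 0.0058 with the muscle score. Of 45 other genes called with Ucp1, 33 kept direction and call in Eif2s3y-low mice alone. In Eif2s3y-high mice 20 did without epididymis transcripts and 0 with them. In mice of low, middle and high number 16, 12 and 18 did. Fewer mice enter each of these fits. With no set term, the r of Ccnd2 was 0.195, that of Rap1gap2 0.250 and that of Mal -0.103. That of Rap1gap2 was 0.0014 in Eif2s3y-low mice, and that of Elovl6 -0.044 in Eif2s3y-high mice without epididymis transcripts. No paired analysis was possible because the labels give 1 group. Arrays lack read depth, and no array was repeated.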

Other observations

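Among the genes most like Dio2, Tmprss4, a membrane protease, had r = 0.56 with Dio2 over the 295 mice, A2m, a protease inhibitor, 0.54, and Clca1, a secreted protein, 0.53. In the Eif2s3y-low mice these correlations were 0.65, 0.63 and 0.64, and in the high mice without epididymis transcripts 0.19, 0.06 and 0.05. Fhl2, a muscle-expressed cofactor, had r = 0.44 with Dio2 in the low mice and 0.73 in both high sets. Ppara correlated most with Ndufa10, a complex I subunit (0.76), and Ppargc1b (0.74), with lower values in each of the high sets than in the low mice. The less variable Otop1 probe correlated most with Gdnf (0.80), Tiam2 (0.80) and Foxq1 (0.80), none of which was among the 5 genes most like the other Otop1 probe. These genes were read from the 5 most like each member, after the values were seen.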
